A study of Xenopus laevis with 11 samples.

Results

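Chromosomes 7L and 7S are a homeologous pair of the African clawed frog Xenopus laevis. The 4231 regions described here are all series-wide H3K4me3 and p300 peaks whose chromosome name is 7L or 7S, out of 49958 series-wide peaks in all. They comprise 1071 H3K4me3 and 1399 p300 peaks on 7L, and 784 H3K4me3 and 977 p300 peaks on 7S. The 16 other L and S chromosomes held 20336 H3K4me3 and 20641 p300 peaks, and the remaining 2757 H3K4me3 and 1993 p300 peaks lay on scaffolds. The choice used the chromosome name alone.

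The study applied chromatin immunoprecipitation and sequencing (ChIP-seq) to whole embryos at Nieuwkoop-Faber (NF) stage 10.5, which is the early gastrula; the labels give no genotype or treatment. Embryos were pooled, 35 to 90 at a time, fixed with formaldehyde and sonicated. H3K4me3 and p300 were each precipitated in 2 replicates, with the Abcam antibody ab8580 and the Santa Cruz antibody C-20. The lists give positions only, with no height or score and no read depth, so counts of peaks were taken as the size of each list and not as a level of binding. A whole embryo mixes the cells of all germ layers, so fewer cells that carry a peak and a weaker peak in every cell cannot be told apart.

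Xenopus laevis is an allotetraploid: its genome joins those of a pair of ancestral species, and most chromosomes exist as a longer L copy and a shorter S copy that descend from the same ancestral chromosome. Trimethylation of lysine 4 on histone H3 (H3K4me3) marks the nucleosomes around the start sites of active and poised genes. The acetyltransferase p300 is a coactivator that transcription factors recruit to enhancers and promoters, where it acetylates histones. In the gastrula, when germ layers form and the zygotic genome is active, p300 peaks outside H3K4me3 are commonly read as candidate enhancers, and H3K4me3 peaks as promoters.

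Both chromosomes carried more p300 peaks for their number of H3K4me3 peaks than the rest of the chromosome set. There were 1.31 p300 peaks per H3K4me3 peak on 7L and 1.25 on 7S, against 1.02 over the 16 other chromosomes pooled. In the replicate 1 lists the ratio was 1.25 on 7L and 1.22 on 7S, against 1.07 over the others. In the replicate 2 lists, where p300 has many more calls, it was 2.58 on 7L and 2.63 on 7S, against 2.24 over the others. The pair held the highest and second highest ratio of the 18 chromosomes in all 3 kinds of list. The next chromosome was 8L in the series-wide and replicate 1 lists, at 1.11 and 1.15, and 6S in replicate 2, at 2.56, which is close to the 2.58 of 7L. The lowest was 3L, at 0.931 in the series-wide lists. As the log2 of the ratio over both chromosomes of a pair, pair 7 had 0.36 and the 8 other pairs 0.02 ± 0.06 (mean ± SD, n = 8 pairs). A two-sided exact permutation of the label over the 9 pairs gave p = 0.111, the smallest it can give, so no difference between pair 7 and the other pairs could pass 0.05 by this test (adjusted p = 0.185 over 10 measures by Benjamini-Hochberg). The ratio was picked after many measures had been seen.

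**Figure D1:**
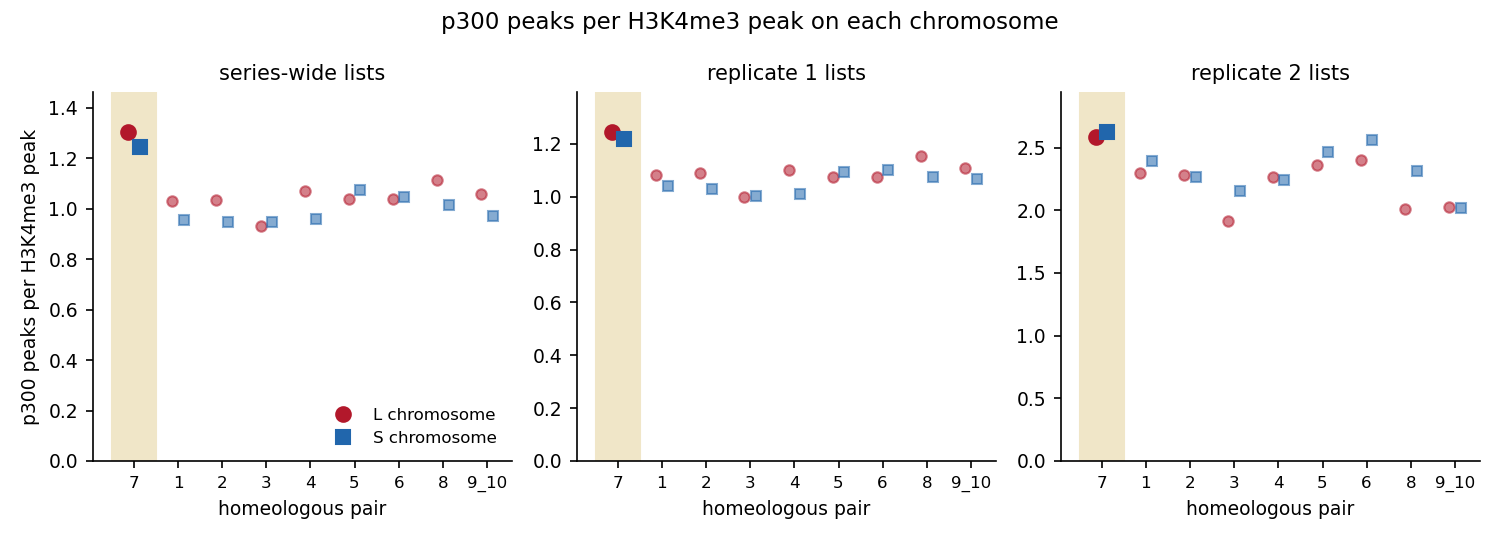
p300 peaks per H3K4me3 peak on each chromosome (vertical axis, from 0) for each homeologous pair (horizontal axis), in the series-wide, replicate 1 and replicate 2 lists; circles are L chromosomes and squares S chromosomes, and the shaded column is pair 7. The ratios of 7L and 7S, 1.31 and 1.25 in the series-wide lists, lie above those of the 16 other chromosomes in each panel, by a narrow margin in replicate 2.

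Whether this reflects more p300 peaks or fewer H3K4me3 peaks depends on the length taken for 7S. Densities are given per Mb of span, the position where the last peak ends, since no chromosome lengths of the files' build were used. Series-wide p300 peaks numbered 11.0 per Mb on 7L and 10.9 per Mb on 7S, against 9.01 per Mb over the 16 other chromosomes. H3K4me3 peaks numbered 8.44 per Mb on 7L and 8.75 per Mb on 7S, against 8.87 per Mb over the others. In the gene table of another assembly, Xenopus_laevis_v10.1, genes reached past these spans: the last peak stood at 90.8% of the last gene's position on 7L and at 79.3% on 7S, the lowest of the 18 chromosomes, against a median of 92.9% over the 16 others. Per Mb of that longer length, p300 peaks numbered 10.0 on 7L and 8.64 on 7S, against 8.30 over the others, and H3K4me3 peaks 7.66 on 7L and 6.94 on 7S, against 8.17. In the series-wide list the high p300 density of 7L held with both lengths, at rank 4 of 18. That of 7S moved from rank 5 to rank 8. With the longer length, p300 on 7S lay slightly below the others in both replicate lists. It was 11.2 against 11.4 per Mb in replicate 1 and 19.8 against 19.9 in replicate 2, with 13.0 and 21.5 on 7L. The ratio of p300 to H3K4me3 peaks uses no length.

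Inside and outside H3K4me3, series-wide p300 peaks were split on 7S much as elsewhere, and on 7L a somewhat smaller share lay at H3K4me3. Peaks of p300 outside H3K4me3, the candidate enhancers, numbered 7.98 per Mb of span on 7L and 7.59 per Mb on 7S, against 6.28 per Mb over the 16 other chromosomes. These were 3rd and 5th of the 18 chromosomes, with 9_10L the highest at 8.53 per Mb. Peaks of p300 that overlapped H3K4me3 numbered 3.04 per Mb on 7L and 3.31 per Mb on 7S, against 2.72 per Mb over the others. Here 7L was 6th and 7S 4th, with 8L the highest at 3.87 per Mb. Neither density was computed with the longer length. Of the p300 peaks, those at H3K4me3 made up 27.6% on 7L (386 peaks, Wilson 95% interval 25.3 to 30.0%) and 30.4% on 7S (297 peaks, 27.6 to 33.4%). Over the 16 other chromosomes they made up 30.3%, and over the whole series, scaffolds included, 30.0%. The share on 7S is near that background. The share on 7L was 17th of 18 in the series-wide and replicate 1 lists and 10th in replicate 2.

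The difference between 7L and 7S in this share did not hold over the replicates. It was -2.81 percentage points (7L minus 7S) in the series-wide lists and -0.932 points in replicate 1, but 0.708 points in replicate 2. In replicate 1 the shares were 36.1% on 7L and 37.1% on 7S, and in replicate 2 they were 18.5% on 7L and 17.8% on 7S. With 2 replicates the smallest two-sided exact sign-flip p is 0.5, so differences between 7L and 7S are given by their values in each list, with no test.

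Seen from the promoter mark, H3K4me3 peaks overlapped p300 more often on both chromosomes. On 7L 307 of 1071 H3K4me3 peaks did so, or 28.7% (26.0 to 31.4%), and on 7S 232 of 784, or 29.6% (26.5 to 32.9%). The share was 24.9% (24.3 to 25.5%) over the 16 other chromosomes and 24.4% over the whole series. The highest of the 16 others was 5S, at 27.5%, inside the intervals of both 7L and 7S. In replicate 1 the shares were 34.5% on 7L and 34.8% on 7S, against 32.1% over the others, with 8L above both at 35.5%. In replicate 2 they were 36.3% on 7L and 37.0% on 7S, against 34.0% over the others, with 6L between them at 36.4%. Over the pair the share was 29.1%, against 25.0 ± 1.47% for the 8 other pairs (mean ± SD; exact permutation p = 0.111, the smallest possible). In replicate 1 pair 7 and pair 8 were level, both at 34.6%. In replicate 2 pair 7 had 36.6% and pair 6, the next, 35.8%. The share over both chromosomes of a pair was added after values had been seen. The intervals take peaks as independent, and they hold counting error alone. This share is not separate from the ratio of p300 to H3K4me3 peaks given above. With more p300 peaks per H3K4me3 peak and a share of p300 at H3K4me3 near or not far below that elsewhere, more H3K4me3 peaks would meet p300.

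Most H3K4me3 peaks with p300 held a single p300 peak. Of the 1071 H3K4me3 peaks on 7L, 245 held 1 p300 peak, 49 held 2 and 13 held 3 or more. Of the 784 on 7S, 187 held 1, 29 held 2 and 16 held 3 or more, and the most in a single H3K4me3 peak was 4 on either chromosome. The share with 3 or more was 1.21% on 7L (0.711 to 2.07%) and 2.04% on 7S (1.26 to 3.29%), against 0.983% over the 16 other chromosomes. The order did not hold over the replicates: in replicate 1 the shares were 1.92% on 7L and 2.22% on 7S, against 1.72%, and in replicate 2 they were 2.49% on 7L and 1.41% on 7S, against 1.49%.

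The share of H3K4me3 peaks that overlapped p300 rose with their width on both chromosomes. Any shared base counted as an overlap, so a wider peak has more bases at which to meet p300. No rate per kb was computed, and how much of the rise follows from width alone was not tested. Width classes were set by the quartiles of all series-wide H3K4me3 peaks, at 628, 1075.5 and 1647 bp. In the narrowest class 15.6% of the 7L peaks and 17.7% of the 7S peaks overlapped p300, against 17.5% over the 16 other chromosomes, so the narrowest peaks did not stand above the rest. In the next class the shares were 22.0% on 7L and 24.5% on 7S, against 17.1% over the others. In the class above it they were 27.2% on 7L and 30.5% on 7S, against 21.9%. In the widest class they were 47.9% on 7L (42.2 to 53.7%) and 45.2% on 7S (38.4 to 52.2%), against 41.4% (40.1 to 42.8%). The contrast in this class was smaller with the p300 lists of single replicates. With replicate 1 the shares were 55.2% on 7L and 51.8% on 7S, against 50.6%. With replicate 2 they were 58.0% on 7L and 58.9% on 7S, against 56.1%. The H3K4me3 peaks themselves were not wider: their median width was 1088 bp on both 7L and 7S (quartiles 655 and 1728 bp on 7L, 640.5 and 1651 bp on 7S), against a median of 1127.5 bp over the medians of the 16 other chromosomes. Median p300 width was 218 bp on 7L and 222 bp on 7S, against 214 bp.

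**Figure D2:**
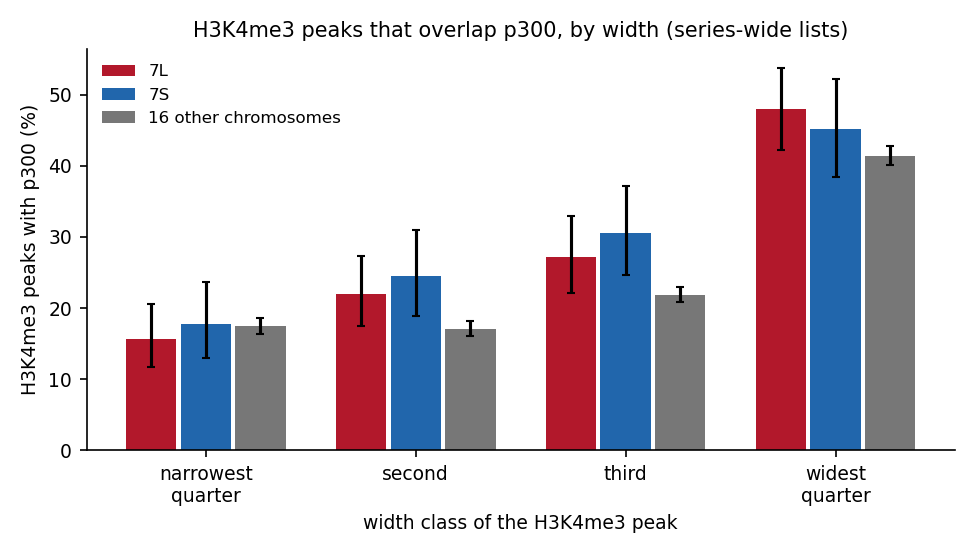
Share of series-wide H3K4me3 peaks that overlap a series-wide p300 peak (vertical axis, percent, from 0) in 4 classes of H3K4me3 width (horizontal axis), on 7L, on 7S and over the 16 other chromosomes; bars are shares and error bars Wilson 95% intervals, which cover counting error only. The share reaches 47.9% on 7L and 45.2% on 7S in the widest class, and in the narrowest class, at 15.6% and 17.7%, it is not above the 17.5% of the other chromosomes.

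The spans of the 2 chromosomes differed more than those of any other pair. The span was 126.866 Mb on 7L and 89.647 Mb on 7S, the shortest of the 18. The log2 ratio of span, 7L over 7S, was 0.50, against 0.24 ± 0.04 for the 8 other pairs (range 0.17 to 0.29; exact permutation p = 0.111, the smallest possible). The spans are not chromosome lengths: with the last gene of the v10.1 table in their place the ratio was 0.31, against 0.25 ± 0.06 for the 8 other pairs (exact permutation p = 0.444), and pair 7 was no longer the first.

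Both targets had more peaks on 7L than on 7S. The log2 ratio of H3K4me3 counts, 7L over 7S, was 0.45 in the series-wide list, 0.49 in replicate 1 and 0.45 in replicate 2, against 0.36 ± 0.09 over the 8 other pairs in the series-wide list. For p300 it was 0.52 in the series-wide list, 0.52 in replicate 1 and 0.42 in replicate 2, against 0.43 ± 0.08. The series-wide ratios lay inside the range of the other pairs for both targets. In each p300 replicate list pair 7 was above the other pairs of the same list, at 0.52 against at most 0.51 in replicate 1 and 0.42 against at most 0.39 in replicate 2 (exact permutation p = 0.111 and 0.222).

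Per Mb of span the 2 chromosomes lay close together, but this rests on the span. The log2 ratio of H3K4me3 peaks per Mb, 7L over 7S, was -0.05 in the series-wide list, -0.01 in replicate 1 and -0.05 in replicate 2. It was above 0 in each of the 8 other pairs, at 0.12 ± 0.07 in the series-wide list, and pair 7 ranked last of 9 in every list. For p300 it was 0.02 in the series-wide list, 0.02 in replicate 1 and -0.08 in replicate 2, against 0.19 ± 0.07 over the other pairs in the series-wide list and 0.04 ± 0.09 in replicate 2, where pair 8 was lower. The exact permutation p was 0.111 for both targets in the series-wide lists (adjusted p = 0.185 over 10 measures), and 0.222 for H3K4me3 in either replicate. With the last gene of the v10.1 table in place of the span, the series-wide ratio turned to 0.14 for H3K4me3, against 0.11 ± 0.10 over the other pairs, and was 0.21 for p300, against 0.18 ± 0.11 (exact permutation p = 0.778 and 0.556). The low ratio per Mb of pair 7 was therefore not seen with that length.

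The balance of peaks between 7L and 7S was close for p300 and H3K4me3. The log2 ratio of counts for p300 minus that for H3K4me3 was 0.07 in the series-wide lists, 0.03 in replicate 1 and -0.03 in replicate 2. The mean over the 8 other pairs was 0.07 ± 0.08, and the exact permutation p was 1 (adjusted p = 1).

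**Figure D3:**
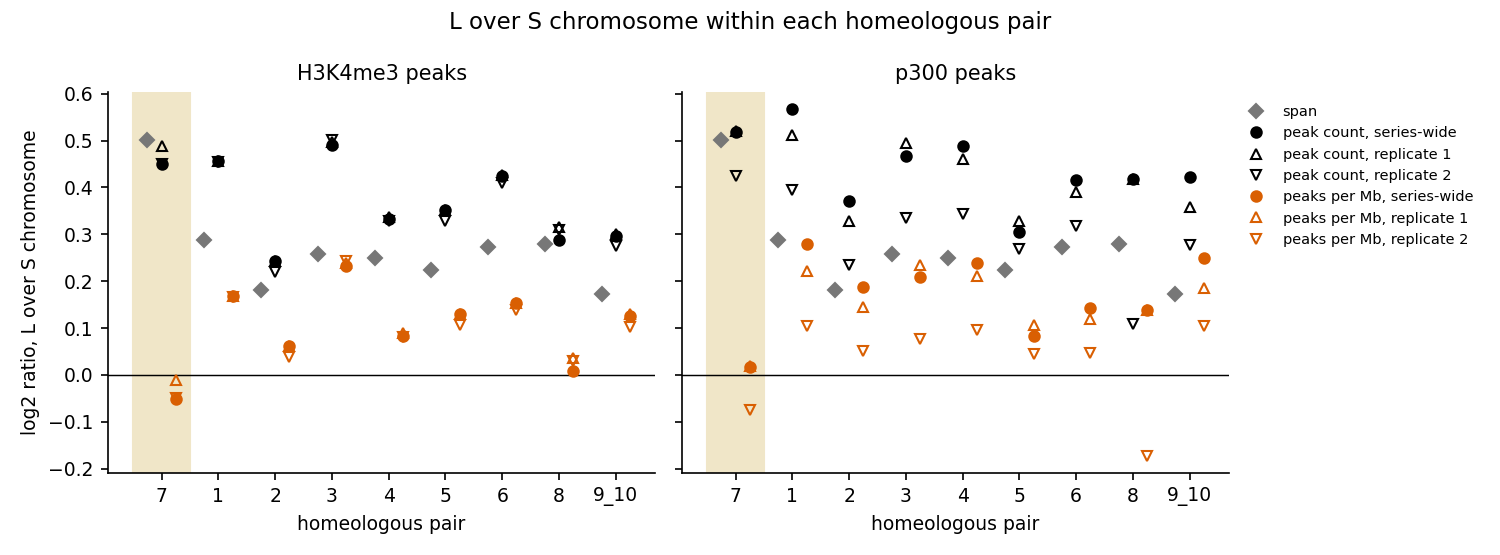
log2 ratio, L over S chromosome (vertical axis), of span (diamonds), of peak count (black) and of peaks per Mb of span (orange) for each homeologous pair (horizontal axis, pair 7 shaded), for H3K4me3 on the left and p300 on the right; filled circles are series-wide lists and open triangles the replicates. Pair 7 has the highest ratio of span, 0.50, and the only H3K4me3 ratios per Mb of span below 0, -0.05 in the series-wide list; with the last gene of the v10.1 table as the length that value is 0.14.

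Calls of p300 in replicate 1 recurred more often here than over the other chromosomes. A p300 peak of replicate 1 overlapped a replicate 2 peak in 76.5% of cases on 7L (74.5 to 78.4%) and 76.9% on 7S (74.5 to 79.2%), against 72.7% over the 16 other chromosomes and 70.8% over the whole series. These were the second highest and highest of the 18 chromosomes, and the next was 5S at 74.7%, inside the intervals of both. In the opposite direction, 45.6% of replicate 2 p300 peaks recurred on 7L, 3rd of 18, and 42.1% on 7S (40.1 to 44.2%), 7th of 18, against 40.7% over the others and 41.7% over the whole series, with 8L the highest at 48.2%. Peaks of p300 also lay closer to each other on 7L and 7S and the part of that in the recurrence was not tested.

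For H3K4me3 the order was different. A replicate 1 peak recurred in replicate 2 in 71.3% of cases on 7L (68.9 to 73.6%), the lowest of the 18 chromosomes, and in 73.1% on 7S (70.3 to 75.7%), against 74.6% over the 16 others and 73.8% over the whole series. A replicate 2 peak recurred in replicate 1 in 91.5% of cases on 7L and 91.6% on 7S, against 91.6% over the others and 91.2% over the whole series.

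Calls found in a single replicate were narrower than those that recurred, most of all for H3K4me3. On 7L the 418 H3K4me3 peaks of replicate 1 alone had a median width of 375 bp, against 1437 bp for those that recurred. On 7S the 279 had 388 bp, against 1470.5 bp, and over the 16 other chromosomes the medians were 375 and 1466 bp. For p300 on 7L they were 172 and 239 bp in replicate 1, and 233 and 318 bp in replicate 2. For p300 on 7S they were 176 and 241 bp in replicate 1, and 230 and 326 bp in replicate 2. Overlaps of p300 with H3K4me3 in this paragraph are with series-wide H3K4me3 peaks. The replicate shares given earlier used the H3K4me3 list of the same replicate, so the values are not comparable. The 1636 p300 peaks of replicate 2 alone on 7L overlapped series-wide H3K4me3 in 8.92% of cases, against 28.2% of those that recurred. On 7S 7.94% of 1297 did so, against 30.1%. The 16 other chromosomes had much the same shares, 9.87% against 30.5%. For p300 peaks of replicate 1 alone the drop was smaller. On 7L 23.0% of them overlapped H3K4me3, against 27.7% of those that recurred, and on 7S 19.5%, against 30.3%. Over the 16 others these shares were 27.4% and 30.3%. Where a replicate 1 and a replicate 2 call matched one to one, their centres lay a median of 28 bp apart for p300 on 7L and 29 bp on 7S, and 74.75 bp apart for H3K4me3 on 7L and 90.5 bp on 7S. The replicate 1 call was the wider in 79.1% of H3K4me3 matches on 7L and 81.0% on 7S, and in 18.3% of p300 matches on 7L and 18.5% on 7S.

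The p300 peaks outside H3K4me3 lay at distances from it that differed little from elsewhere on 7L and were shorter for part of them on 7S. From such a peak to the nearest H3K4me3 peak the median gap was 17.4 kb on 7L (1013 peaks, quartiles 5.11 and 43.6 kb) and 14.8 kb on 7S (680 peaks, 4.59 and 47.6 kb), against 17.8 kb over the 16 other chromosomes. In replicate 2 the medians were 24.9 kb on 7L and 24.0 kb on 7S, against 25.1 kb. Outside H3K4me3 but within 1 kb of it lay 6.15% of all 7L p300 peaks and 4.30% of all 7S ones, against 5.38% over the others. At 1 to 10 kb lay 21.2% on 7L (19.2 to 23.4%) and 23.5% on 7S (21.0 to 26.3%), against 20.0% over the others. For that class the replicate 1 shares were 20.0% on 7L and 23.1% on 7S, against 18.7%. In replicate 2 they were 19.2% on 7L and 21.0% on 7S, against 19.3%. At 10 to 50 kb there were 29.3% on 7L and 25.6% on 7S, against 27.2% over the others. A further 15.7% on 7L and 16.2% on 7S lay more than 50 kb away, against 17.2%.

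Peaks of p300 lay close to each other. The median distance between neighbouring p300 peaks was 16.6 kb on 7L and 17.8 kb on 7S, against 26.6 kb over the 16 other chromosomes, and 48.7% of the 7L peaks and 49.7% of the 7S peaks had another p300 peak within 5 kb, against 42.7%. In replicate 1 the medians were 15.3 and 16.9 kb, against 22.3 kb. The contrast was smaller in replicate 2, at 16.0 and 17.0 kb against 19.2 kb, with 45.0% and 43.0% within 5 kb against 40.0%. Spacing depends on the density of peaks, which was higher on 8L, 9_10L and 8S, at 12.3, 12.2 and 11.2 per Mb of span. Those chromosomes were not taken singly here. In 100 kb tiles, 5.75% on 7L (4.60 to 7.17%) and 5.91% on 7S (4.55 to 7.65%) held 5 or more p300 peaks, against 4.24% over the others. Those tiles held 40.3% of the p300 peaks of 7L and 44.0% of those of 7S, against 34.2%. Tiles with neither target were as common as elsewhere, at 38.9% on 7L and 38.4% on 7S, against 39.3%.

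Along the chromosomes the ratio of p300 to H3K4me3 was uneven. With each span divided into 10 equal lengths, the second of them had the highest series-wide ratio on both chromosomes, 1.81 p300 peaks per H3K4me3 peak on 7L (12.7 to 25.4 Mb, 176 p300 and 97 H3K4me3 peaks) and 1.88 on 7S (8.96 to 17.9 Mb, 147 and 78). It was also the highest on both chromosomes in replicate 2, at 3.61 on 7L and 4.38 on 7S. In replicate 1 it was the highest on 7L, at 1.58, and was 1.65 on 7S, where the seventh had 1.69.

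The lowest ratio was on 7S in the fifth length, 35.9 to 44.8 Mb. It held 30 p300 and 63 H3K4me3 peaks, a ratio of 0.476, with 0.554 in replicate 1 and 1.63 in replicate 2. The length of the same number on 7L, 50.7 to 63.4 Mb, had a ratio of 1.01 (106 p300 and 105 H3K4me3 peaks), the lowest of 7L. These lengths match by span only and were not recomputed with the v10.1 length. On 7L 9 of 10 lengths lay above the ratio of the 16 other chromosomes in each of the 3 kinds of list. On 7S 7 of 10 did so in the series-wide lists, 8 in replicate 1 and 5 in replicate 2. The higher ratio was therefore spread along 7L and less evenly along 7S.

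The profiles of the 2 chromosomes resembled each other in part. Over 50 bins of equal scaled length, the Spearman rho between 7L and 7S was 0.29 for H3K4me3 in the series-wide list, 0.48 in replicate 1 and 0.35 in replicate 2. For p300 it was 0.45 in the series-wide list, 0.46 in replicate 1 and 0.50 in replicate 2. Among the 9 S chromosomes, 7S was the most like 7L for both targets in every list and with 25, 50 or 100 bins. At 50 bins the next in the series-wide lists was 4S, with 0.23 for H3K4me3 and 0.25 for p300. With 7S turned end to end rho was 0.24 for H3K4me3 and 0.25 for p300, no lower than with 4S. For H3K4me3 this was close to the 0.29 without turning, while the turned values were 0.30 in replicate 1 and 0.22 in replicate 2. Part of the likeness therefore did not depend on the direction of 7S. The value depends on the bin size: with 25 bins rho was 0.62 for H3K4me3 and 0.80 for p300, and with 100 bins 0.32 and 0.24. With 7S turned it was 0.46 for H3K4me3 and 0.27 for p300 with 25 bins, and 0.10 and 0.06 with 100 bins. Scaled positions rest on the spans, and the profiles were not recomputed with the v10.1 length. Bins are not replicates and all of them come from the same libraries, at an unknown depth, so these values describe the profiles and carry no test.

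Both chromosomes peaked in the same bin of their spans. Bin 48 of 50, near the end of the span, held the most peaks of both targets in the series-wide and replicate 1 lists, with 51 H3K4me3 and 69 p300 peaks on 7L and 40 H3K4me3 and 56 p300 peaks on 7S series-wide. In replicate 2 it held the most H3K4me3 peaks on both and the second most p300 peaks, 103 on 7L and 84 on 7S, where another bin equalled it. Bin 25, just before the middle, held the fewest series-wide p300 peaks, 1 on 7L and 3 on 7S, beside 10 H3K4me3 peaks on each. It held 6 p300 peaks on 7L in replicate 1, again the fewest, but 10 on 7S, where other bins held fewer. In replicate 2 it held 18 on 7L and 17 on 7S and was the lowest on neither. Bins of the same number match by span only. The last peak stood at 90.8% of the last v10.1 gene's position on 7L but at 79.3% on 7S, and the bins were not recomputed with that length.

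**Figure D4:**
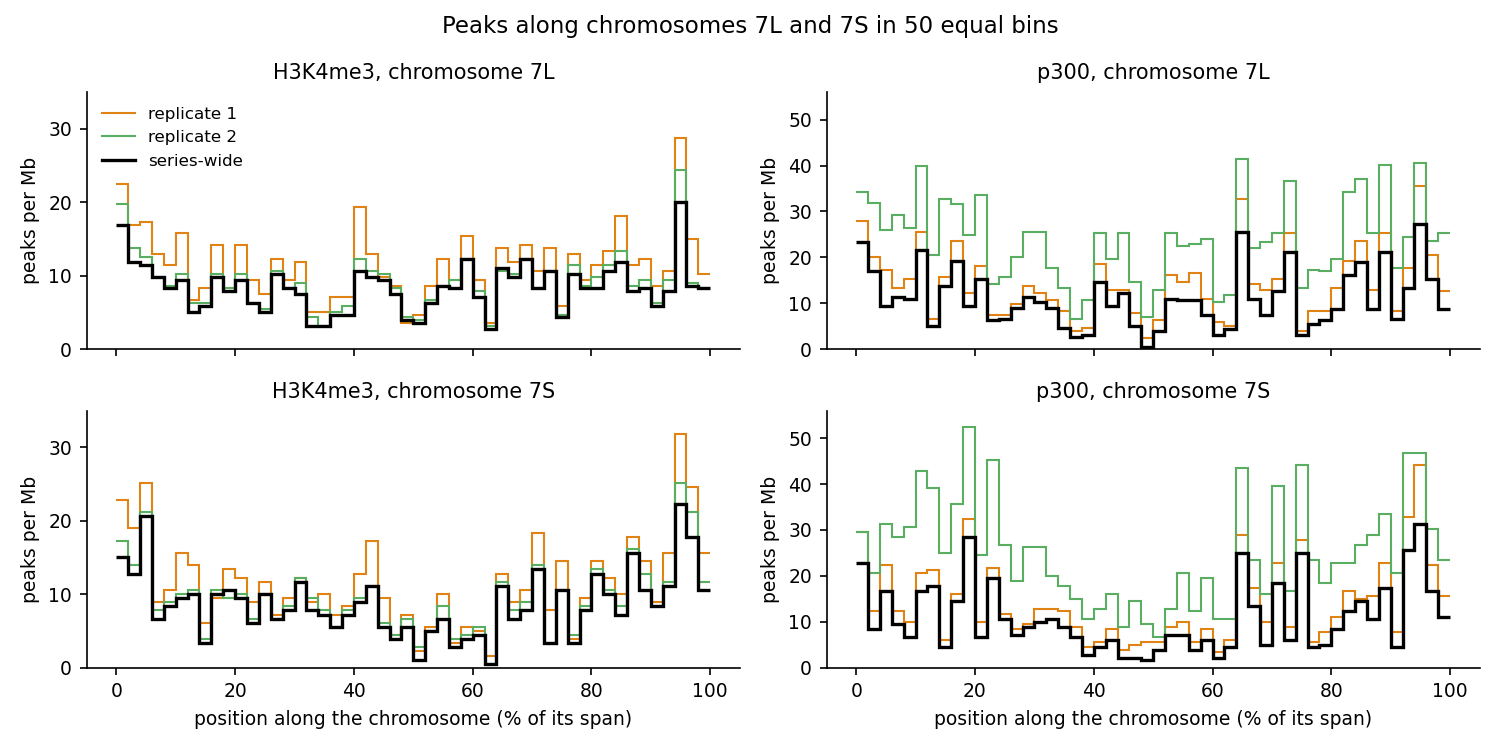
H3K4me3 (left) and p300 (right) peaks per Mb (vertical axis, same scale within a target) in 50 bins of equal length along 7L (top) and 7S (bottom), by position as percent of the span (horizontal axis); black is the series-wide list, orange replicate 1 and green replicate 2. On both chromosomes bin 48 is the highest for both targets in the series-wide lists, with 51 H3K4me3 peaks on 7L and 40 on 7S. Bin 25, just before the middle, is the lowest for series-wide p300. Bins of the same number match by span only and were not recomputed with the v10.1 length.

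The 2 targets also followed each other along each chromosome. Over the 50 bins the Spearman rho between H3K4me3 and p300 counts in the series-wide lists was 0.66 on 7L and 0.70 on 7S, with 0.78 and 0.74 in replicate 1 and 0.66 and 0.64 in replicate 2. A bin of 7L held 7 to 51 H3K4me3 and 1 to 69 p300 peaks, and a bin of 7S 1 to 40 and 3 to 56.

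Single windows carried a large number of p300 peaks. The densest 100 kb of 7S, chr7S:16850066-16950065, held 31 p300 peaks in the series-wide list, 34 in replicate 1 and 37 in replicate 2. It held 9 H3K4me3 peaks, with 13 in replicate 1 and 8 in replicate 2, and 11 of its 31 p300 peaks overlapped them. The widest of its H3K4me3 peaks was 4773 bp. Of the densest p300 window of each of the 18 chromosomes, this was the second, after that of 3L with 35.

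The densest 100 kb of 7L, chr7L:93681713-93781712, held 27 p300 peaks in the series-wide list, 28 in replicate 1 and 32 in replicate 2. It held 7 H3K4me3 peaks, with 11 in replicate 1 and 7 in replicate 2, and 5 of its p300 peaks overlapped them. Its p300 peaks lay a median of 2.04 kb apart, and those of the 7S window 1.93 kb. Most p300 peaks of both windows lay outside H3K4me3, as did most of those of the whole series, where 30.0% overlapped it. Each replicate list held few more p300 peaks in these windows than the series-wide list. The windows were picked for their count of series-wide peaks, which need a call in both replicates. That choice favours lists of similar size, so the closeness is no measure of how well the windows reproduce.

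**Figure D5:**
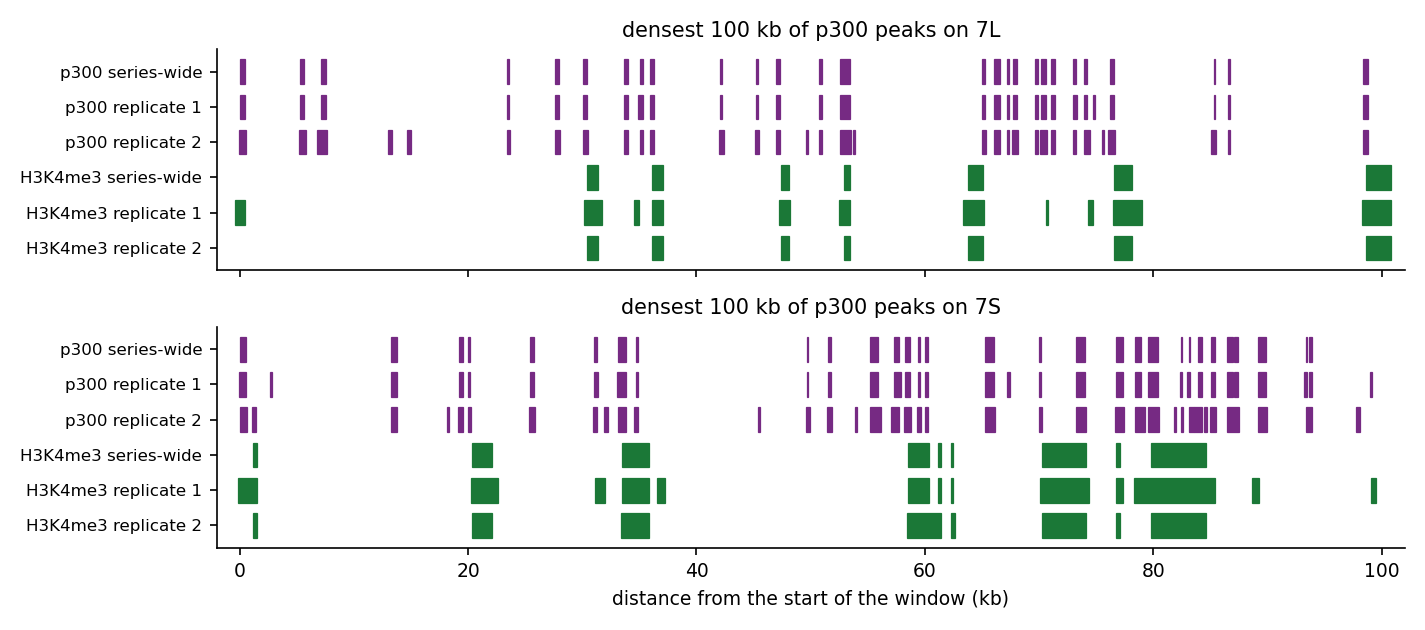
Peaks in the densest 100 kb of p300 peaks on 7L (top) and 7S (bottom), drawn to scale by distance in kb from the start of the window (horizontal axis); each row is a list, with p300 in purple and H3K4me3 in green. The series-wide rows, 27 p300 peaks on 7L and 31 on 7S, hold by construction only what both replicates cover. Most lie between the H3K4me3 peaks, as do most p300 peaks of the whole series, where 30.0% overlap H3K4me3. The replicate rows hold few further p300 peaks, which the choice of windows by series-wide count favours.

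The next windows fell at similar percentages of the span on both chromosomes, in the other order. The second densest of 7L, chr7L:21778282-21878281, started at 17.2% of the span, and the densest of 7S at 18.8%. It held 22 p300 peaks in the series-wide list, 25 in replicate 1 and 27 in replicate 2, beside 8 H3K4me3 peaks. The densest of 7L started at 73.8% of the span, and the second densest of 7S, chr7S:67832438-67932437, at 75.7%. That 7S window held 26 p300 peaks in the series-wide list, 26 in replicate 1 and 30 in replicate 2, beside 7 H3K4me3 peaks. The remaining windows were apart: chr7L:107593587-107693586, at 84.8% of the span, held 22 p300 and 3 H3K4me3 peaks, and chr7S:83264699-83364698, at 92.9%, held 19 and 3. These percentages rest on the spans. The last peak stood at 90.8% of the last v10.1 gene's position on 7L but at 79.3% on 7S. Positions on that longer length were not compared. Whether windows at like positions hold homeologous genes was not tested.

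Windows dense in H3K4me3 partly coincided with these. The densest of 7S, chr7S:84876606-84976605, held 10 H3K4me3 peaks, with 10 in replicate 1 and 13 in replicate 2, and 8 p300 peaks, of which 3 overlapped H3K4me3. The densest of 7L, chr7L:619991-719990, held 9 H3K4me3 and 18 p300 peaks, of which 12 overlapped. A window of equal count, chr7L:119513300-119613299, held 9 H3K4me3 and 10 p300 peaks. On 7L chr7L:21784675-21884674 with 8 H3K4me3 peaks, and on 7S chr7S:16851240-16951239 with 9 and chr7S:67822897-67922896 with 8, each overlapped a window dense in p300. In 100 kb, H3K4me3 reached 9 on 7L and 10 on 7S at most, against 18 on 3L.

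Without the 3 densest p300 windows of each chromosome, 7L and 7S still had the highest ratios of p300 to H3K4me3. The ratio was then 1.26 on 7L and 1.18 on 7S, against 1.08 on 8L, the next. The order was also kept with peaks of at least the median width, with 1.31 on 7L and 1.29 on 7S against 1.09 on 6L, and with peaks merged across gaps of 1 kb or less, with 1.20 on 7L and 1.13 on 7S against 1.00 on 5S.

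The widest H3K4me3 peaks mostly held p300. On 7L they were chr7L:112276328-112282919 (6592 bp), chr7L:26335136-26340987 (5852 bp) and chr7L:6676344-6681857 (5514 bp), and each overlapped p300 in the series-wide list and in both replicates. On 7S the widest, chr7S:83261914-83267938 (6025 bp), held 2 p300 peaks in each list, and chr7S:68007459-68012804 (5346 bp), held 1 in the series-wide list, 1 in replicate 1 and 2 in replicate 2. The exception was chr7S:43687777-43693547 (5771 bp). It was called in a single piece in both H3K4me3 replicates, at 6219 and 5771 bp, but held no p300 peak in the series-wide or replicate 1 list, where the nearest lay 138.919 kb away, and 1 in replicate 2. It lies in the stretch of 7S with the lowest ratio of p300 to H3K4me3. In the widest class, from 1647 bp, 47.9% of H3K4me3 peaks on 7L and 45.2% on 7S overlapped series-wide p300, against 41.4% over the 16 other chromosomes. The share for peaks as wide as those named was not computed, on these or the other chromosomes.

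The 3 widest p300 peaks of each chromosome all overlapped an H3K4me3 call of replicate 1, and differed only in the series-wide and replicate 2 lists. On 7L they were chr7L:82370407-82371657 (1251 bp), chr7L:119919505-119920642 (1138 bp) and chr7L:1826894-1827814 (921 bp), and each overlapped H3K4me3 in the series-wide list and in both replicates. On 7S they were chr7S:87868136-87869095 (960 bp), chr7S:67881940-67882894 (955 bp) and chr7S:84197764-84198686 (923 bp). None of these 3 overlapped a series-wide H3K4me3 peak, the nearest lying 33.68, 4.076 and 34.486 kb away. Each overlapped an H3K4me3 call of replicate 1, of 988, 964 and 1685 bp, and none in replicate 2. Their place outside H3K4me3 therefore rests on the H3K4me3 replicate 2 library.

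Long stretches without a series-wide H3K4me3 peak held few series-wide p300 peaks. Each of those named held 1 to 3 H3K4me3 calls in at least 1 replicate list. The longest on 7L was chr7L:48057139-49936241, of 1.88 Mb, where 7 p300 peaks stood in the series-wide list, 11 in replicate 1 and 17 in replicate 2. The next, chr7L:62553417-64074705 of 1.52 Mb and chr7L:94267731-95488839 of 1.22 Mb, held 1 series-wide p300 peak each, with 3 and 1 in replicate 1 and 13 and 8 in replicate 2. On 7S chr7S:68348003-69656356 of 1.31 Mb held 3, chr7S:45264339-46562712 of 1.30 Mb held 5 and chr7S:65512161-66807534 of 1.30 Mb held 1. In the same order they held 4, 8 and 1 in replicate 1 and 18, 9 and 12 in replicate 2. Some lay near windows dense in p300 on the scale of the span, but did not adjoin them. On 7L the stretch from 94267731 began at 74.3% of the span, and the window at 73.8% ended at 93781712. On 7S the stretches from 65512161 and 68348003 began at 73.1% and 76.2%. The former ended at 66807534, and the window at 75.7% ran from 67832438 to 67932437, between them.

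Stretches of more than 500 kb without a series-wide H3K4me3 peak made up 26.2% of the span of 7L (45 stretches, 33.2 Mb) and 22.7% of that of 7S (26 stretches, 20.4 Mb), against 25.5% over the 16 other chromosomes. They held 2.77 series-wide p300 peaks per Mb on 7L and 3.19 per Mb on 7S, against 3.16 per Mb over the others. Outside them the density was 14.0 per Mb on 7L and 13.2 per Mb on 7S, against 11.0 per Mb. In replicate 1 the p300 density of these stretches was 4.18 per Mb for 7L and 4.81 per Mb for 7S, against 4.62 over the others, and in replicate 2 it was 11.2 for 7L and 13.1 for 7S, against 11.8. On 7S the values were thus close to those of the others or slightly above, and on 7L slightly below. They rest on 65 series-wide p300 peaks on 7S and 92 on 7L, and the spread over single chromosomes was not computed. Shares and densities of the rest of the span rest on the span.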

How the data were processed

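Peak lists of 4 of 11 samples, H3K4me3 and p300 with 2 replicates each, were analysed; the 7 others, with other antibodies or input, were not analysed here. The submitters' processing notes name bedtools, MACS2 2.1.0.20140616 and BWA 0.7.10-r789. Genome build, peak threshold and control were not given in the sources used here. Per the files, the 6 deposited lists hold chromosome, start and end, with no score, and no read depth. Each of the 4231 series-wide intervals on 7L and 7S is, to the base, an intersection of a replicate 1 and a replicate 2 call, so it can be no wider than the narrower call. Differences of depth or threshold between the libraries change which peaks were called. The labels do not say whether replicates came from separate clutches or which of 2 instruments ran a library, so their spread may be technical. Samples were grouped by target and replicate number in the titles.

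Overlaps of at least 1 bp, gaps, widths and densities were computed in numpy 2.4.6 and scipy 1.17.1 under Python 3.11.15; the overlap, intersection and gap functions were tested on simulated data against a base-by-base count. Span is where the last peak of any list ends. Positions are 1-based in the files' unnamed build. The gene table at hand is of assembly Xenopus_laevis_v10.1, and its genes reach past the last peak on both chromosomes, so its names and positions were not used; its last gene per chromosome served as an alternative length only. Pair 7 was compared with the 8 other pairs by a two-sided exact permutation of the pair label, with Benjamini-Hochberg adjustment over 10 measures within each kind of list. Shares carry Wilson 95% intervals, which cover counting error only. Regions named are, on each chromosome, the 3 widest peaks of each target, the 3 densest 100 kb windows of each target that do not overlap each other, and the 3 longest intervals between H3K4me3 peaks. Alternatives were each replicate list, an overlap of 50% of the shorter peak, a width of at least the median or 50 bp, merging within 1 kb, another span, and 25 or 100 bins. The members, lists and measures were chosen with earlier results of these data known. The ratio of p300 to H3K4me3 peaks, the comparison of span and the shares over both chromosomes of a pair were added after values had been seen and picked from many measures, as were the alternatives without the densest windows and with another length.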

Additional observations from a re-analysis of the deposited data

Results flagged for a closer look

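The log2 ratio of H3K4me3 peaks per Mb, 7L over 7S, was below 0 in both replicates, with a mean of -0.031, whereas the same ratio was above 0 in both replicates of 8 of the 8 other pairs. The exact permutation of the pair label gave p = 0.222 in either replicate, and the difference in direction itself was not tested. The direction depends on the span: with the last gene of the v10.1 table as the length, the ratio was 0.18 in replicate 1 and 0.14 in replicate 2.

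The share of H3K4me3 peaks with p300, 7L minus 7S, was below 0 in both replicates, with a mean of -0.551 percentage points, whereas it was above 0 in both replicates of 6 of the 8 other pairs. Of the remaining pairs, pair 5 was below 0 in both replicates and pair 6 in replicate 1. The difference in direction itself was not tested, and the exact permutation p was 0.556 in replicate 1 and 0.222 in replicate 2.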

How the results depend on the processing

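Each list of a single replicate, or of a single replicate of 1 target, was put in place of the series-wide list; the cause of each move was not tested. The ranges that follow are over these lists. For 7L over 7S, the log2 ratio was 0.45 to 0.49 for H3K4me3 counts and 0.42 to 0.52 for p300 counts, and per Mb of span -0.050 to -0.011 for H3K4me3 and -0.076 to 0.020 for p300, where peaks of at least the median width gave -0.026. With the last gene of the v10.1 table as the length, the ratios per Mb were 0.14 for H3K4me3 and 0.21 for p300, and pair 7 minus the 8 other pairs turned to 0.036 for H3K4me3 and 0.033 for p300. The p300 minus H3K4me3 difference was -0.026 to 0.031. Same-numbered replicates are not stated to share embryos; with the replicate block the difference was 0.0026, and with peaks of at least the median width 0.024. For pair 7 against the 8 other pairs it was -0.0031 in the series-wide lists and reversed sign to 0.043 without replicate 1, with -0.014 without replicate 2. The share of H3K4me3 peaks with p300 was 27.2 to 38.0% on 7L and 28.1 to 39.0% on 7S, with differences (7L minus 7S) of -1.03 to 0.336 points. With peaks of at least the median width it was 26.7% on 7L and 26.8% on 7S, a difference of -0.059 points, and with an overlap of 50% of the shorter peak 25.7% on 7L and 26.8% on 7S. The share of p300 peaks at H3K4me3, 7L minus 7S, was -2.70 to 0.708 points, and 0.340 points with peaks of at least the median width. The median gap was 14.1 to 26.8 kb on 7L and 11.5 to 25.4 kb on 7S, and 25.3 kb on 7L with peaks of at least the median width. The ratio of p300 to H3K4me3 peaks was 1.25 to 2.58 on 7L and 1.22 to 2.63 on 7S. Median widths were 1057.5 to 1075 bp (7L, H3K4me3), 216 to 265 bp (7L, p300) and 220 to 261 bp (7S, p300). The Spearman rho of the profiles was 0.35 to 0.48 for H3K4me3 and 0.46 to 0.50 for p300; it was 0.62 for H3K4me3 and 0.80 for p300 with 25 bins, and for p300 0.24 with 100 bins and 0.50 with peaks of at least the median width. In all, 117 alternative values lay within the spread of the replicates or kept their direction, 41 moved further and 11 changed sign. For measures taken in each replicate list that spread was the SD over those lists, which are themselves among the alternatives. Where the SD was wide, large moves were counted among the 117. On 7L, p300 overlapped H3K4me3 in 17.7 to 38.0% of its peaks, all within the SD of 12.5 points. On 7S the range was 17.3 to 39.6%, all within the SD of 13.6 points. The ranks of 7L and 7S as highest in p300 per H3K4me3 peak held in every alternative run for that ratio. Read depth is unknown, and the peak threshold and 2 replicates limit every difference between 7L and 7S.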
